A study of Mus musculus with 18 samples.

Results

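The genes described here make cholesterol and fatty acids, or regulate that synthesis. They were taken as every gene entry whose symbol stood on a list of 30, and all 30 were found among 24505 entries: 18 enzymes of the sterol arm, 6 regulators and sterol transport genes, and 6 enzymes of the fatty acid arm. Of the 30, 29 passed the filter on low values, as did 18002 of all entries. RNA was sequenced from E14Tg2a mouse embryonic stem cells in 6 groups of 3 libraries. The Daxx-null cells are a line without a functional copy of Daxx, a chaperone of a histone variant, and they were set against their wild-type parent. Each genotype was grown in 2i with vitamin C (inhibitors of GSK3 and MEK, LIF and 100 µg/mL vitamin C, in a medium for which no serum is listed), in retinoic acid (24 h without leukaemia inhibitory factor, LIF, then 4 days in 10 µM retinoic acid, with 10% serum) and in serum with LIF (10% serum and 1000 units/mL LIF). The sources speak of 1 Daxx-/- line and do not give the number of clones or the deleted part of the gene. They call the replicates independent without saying what separated them, so a p-value covers the scatter among these libraries and no more.

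Cholesterol is built from acetyl-CoA through mevalonate and isoprenoid diphosphates to squalene, which is closed into lanosterol and then trimmed to cholesterol. Fatty acids share the acetyl-CoA that Acly supplies. Most of these genes are direct targets of the SREBP transcription factors, encoded by Srebf1 and Srebf2. SREBPs sit in the membrane of the endoplasmic reticulum, Scap escorts them to the Golgi for cleavage when sterols are low, and Insig1 and Insig2 hold them back when sterols are plentiful. Insig1 is itself a target, so its RNA is widely used as a readout of the pathway. Growing cells in serum can also take up cholesterol from lipoproteins, which dampens SREBP cleavage.

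SREBPs bind weakly by themselves and act with NF-Y, which binds CCAAT, and Sp1, which binds GGGCGG. In the RefSeq promoter table (GRCm38.p6), 24 of the 30 members had a window around an annotated start, and both strands were searched. CCAAT was found in 20 of these 24 genes (83.3%), against 41.1% of 27025 genes in the table, and in 14 of 15 genes of the sterol arm (93.3%). In the fatty acid arm it was found in 2 of 4 genes (50%). GGGCGG was also found in 20 of 24 (83.3%), against 38.2% of all genes, but in 1 of 4 genes of the fatty acid arm (25%). TCACNCCAC, a form of the sterol regulatory element, was found in 1 of 24, Hmgcs1, against 1.44% of all genes. None of the 3 motifs contains another. These are matches of letters and were not measured as binding. The promoters of 6 members whose RNA differed between genotypes are shown 5′ to 3′, with CCAAT or its reverse complement ATTGG in capitals. All 6 hold a match, whereas Acat2, Scap and Elovl6, which were also called between genotypes in 2i, hold none.
Mvk (chr5:114444019-114444318, plus strand): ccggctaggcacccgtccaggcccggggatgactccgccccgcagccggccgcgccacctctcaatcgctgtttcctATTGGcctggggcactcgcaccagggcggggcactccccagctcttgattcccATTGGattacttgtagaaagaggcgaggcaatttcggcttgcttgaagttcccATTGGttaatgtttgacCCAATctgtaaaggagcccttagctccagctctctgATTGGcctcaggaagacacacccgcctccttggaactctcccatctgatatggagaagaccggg
Idi1 (chr13:8885356-8885655, plus strand): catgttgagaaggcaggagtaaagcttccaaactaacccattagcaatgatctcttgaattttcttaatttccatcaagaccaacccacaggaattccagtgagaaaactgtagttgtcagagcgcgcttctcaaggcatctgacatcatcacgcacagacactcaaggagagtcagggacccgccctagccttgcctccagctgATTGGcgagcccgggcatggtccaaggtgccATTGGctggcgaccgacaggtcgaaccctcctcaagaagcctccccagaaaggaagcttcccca
Tm7sf2 (chr19:6067801-6068100, minus strand): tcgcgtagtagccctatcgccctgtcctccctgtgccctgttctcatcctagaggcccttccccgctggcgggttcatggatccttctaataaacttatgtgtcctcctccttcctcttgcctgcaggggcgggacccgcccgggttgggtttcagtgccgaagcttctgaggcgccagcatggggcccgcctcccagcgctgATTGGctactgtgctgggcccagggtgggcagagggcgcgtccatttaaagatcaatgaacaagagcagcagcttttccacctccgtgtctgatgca
Msmo1 (chr8:64733529-64733828, minus strand): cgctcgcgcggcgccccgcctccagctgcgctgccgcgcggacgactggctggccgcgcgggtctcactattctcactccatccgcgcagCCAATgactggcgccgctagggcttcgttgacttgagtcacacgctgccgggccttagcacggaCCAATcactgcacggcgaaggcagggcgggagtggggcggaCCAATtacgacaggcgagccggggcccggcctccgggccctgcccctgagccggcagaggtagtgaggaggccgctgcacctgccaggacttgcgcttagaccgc
Hsd17b7 (chr1:169969156-169969455, minus strand): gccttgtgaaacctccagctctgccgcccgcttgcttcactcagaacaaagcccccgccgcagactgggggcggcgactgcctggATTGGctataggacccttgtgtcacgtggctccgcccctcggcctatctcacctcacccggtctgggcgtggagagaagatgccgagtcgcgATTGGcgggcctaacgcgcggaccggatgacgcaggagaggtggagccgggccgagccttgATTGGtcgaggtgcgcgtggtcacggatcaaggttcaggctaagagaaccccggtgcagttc
Insig1 (chr5:28071162-28071461, plus strand): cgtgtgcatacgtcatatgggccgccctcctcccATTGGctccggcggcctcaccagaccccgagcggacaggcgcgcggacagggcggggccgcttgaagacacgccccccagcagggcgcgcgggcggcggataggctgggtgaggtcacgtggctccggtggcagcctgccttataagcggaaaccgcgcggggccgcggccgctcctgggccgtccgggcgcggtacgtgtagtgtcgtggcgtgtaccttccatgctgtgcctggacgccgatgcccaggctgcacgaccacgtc
The Mvk window holds 5 such matches, Msmo1 and Hsd17b7 hold 3 each, Idi1 holds 2, and Tm7sf2 and Insig1 hold 1 each.

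Levels are given in FPKM (fragments per kilobase of exon, scaled to library size) on the authors' scale, which by inference runs to a total of 10 M (M, mega) and so is about 10 times the usual one. The depth recovered from the steps between low values was 84.2 to 141.7 M units per library. Daxx was lower in every Daxx-null library, with 54.4, 56.0 and 57.6 FPKM in Daxx-null against 434, 423 and 402 FPKM in wild-type cells in 2i (log2 fold change -2.89). It had 62.7, 61.7 and 60.8 against 238, 242 and 265 FPKM in retinoic acid (-2.00), and 68.7, 72.2 and 73.7 against 307, 319 and 353 FPKM in serum (-2.18). Pluripotency markers (8 genes summed) stood between 554 and 921 FPKM in retinoic acid libraries and between 19108 and 26008.6 FPKM in serum, and retinoic acid response genes (6 summed) stood at 2261 to 3367 FPKM in retinoic acid and 14.9 to 48.1 FPKM in serum.

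Some libraries stood apart. Daxx-null replicate 2 in 2i had a neural marker sum (8 genes) of 1889 FPKM, against 279 and 255 FPKM in its sister libraries, and a pluripotency sum of 8888 FPKM, against 16360.3 and 14535 FPKM. Its fibroblast sum was 394 FPKM, against 69.6 and 72.4 FPKM, and its retinoic acid response sum 453 FPKM, against 232 and 222 FPKM. Its extraembryonic endoderm sum was 351 FPKM, against 273 and 233 FPKM. Wild-type replicate 3 in 2i held the highest value of its group for Mvk, Mvd, Tm7sf2, Scd1 and Scd2 among others. Its neural sum was 522 FPKM, against 642 and 659 FPKM in its sister libraries, and its pluripotency sum 21659 FPKM, against 20081 and 20147 FPKM. Its fibroblast sum was 21.6 FPKM, against 99.5 and 94.3 FPKM, and its extraembryonic endoderm sum 38.8 FPKM, against 95.9 and 91.3 FPKM. Its retinoic acid response sum was 431 FPKM, against 321 and 326 FPKM. Across the 3 Daxx-null libraries in 2i, pluripotency sums were 8888 to 16360.3 FPKM against 20081 to 21659 FPKM in wild-type libraries. Trophoblast sums (8 genes) were 969.6 to 1059.6 against 404 to 505 FPKM, and extraembryonic endoderm sums (9 genes) 233 to 351 against 38.8 to 95.9 FPKM. The higher trophoblast sums were led by Krt18 and Krt8, whereas Tfap2c averaged 345 against 346 FPKM, Eomes 26.9 against 33.4 FPKM and Elf5 1.00 against 0.392 FPKM. In retinoic acid the response genes summed to 2261 to 2651 FPKM in Daxx-null against 3149 to 3367 FPKM in wild-type libraries, and extraembryonic endoderm markers to 331 to 387 against 537 to 979 FPKM. In serum endoderm sums were 11.6 to 14.8 against 58.2 to 73.8 FPKM, and fibroblast sums (7 genes) 24.0 to 29.4 against 56.7 to 92.9 FPKM. The Y-linked genes Eif2s3y, Uty and Ddx3y summed to 1.20 to 2.59 FPKM in Daxx-null retinoic acid libraries and 2.18 to 2.68 FPKM in Daxx-null serum libraries, but to 173 to 236 FPKM in Daxx-null 2i libraries and 156 to 349 FPKM in wild-type libraries. The sources do not say whether the Daxx-null cells of the 3 cultures share a passage or clone. The part of these shifts in the results was not tested. In bulk RNA, fewer cells of a type and less RNA per cell cannot be told apart.

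The 6 groups held different amounts of the pathway. Summed over 17 tested sterol enzymes, Daxx-null libraries had 3034, 3424 and 2706 FPKM in 2i, against 3659.7, 3532.5 and 5150.9 FPKM in wild type. In retinoic acid the sums were 4043, 4222 and 4391 FPKM in Daxx-null against 3184, 3329 and 2952 FPKM in wild type, and in serum 2376, 2148 and 2139 FPKM against 2632, 2429 and 2648 FPKM. The 3 Daxx-null libraries thus lay below the 3 wild-type libraries in 2i and serum and above them in retinoic acid, with no overlap. Fatty acid sums (6 genes) were dominated by Scd2. They ran at 1909.9, 4375 and 2438 FPKM in Daxx-null against 4783, 4426 and 6806 FPKM in wild type in 2i, at 6107, 6273 and 6322 against 6005, 6041 and 5802 FPKM in retinoic acid, and at 2819.9, 2782 and 2773 against 3697, 3642 and 4092 FPKM in serum. The value of 4375 FPKM belongs to Daxx-null replicate 2, whose marker sums stood apart.

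**Figure D1:**
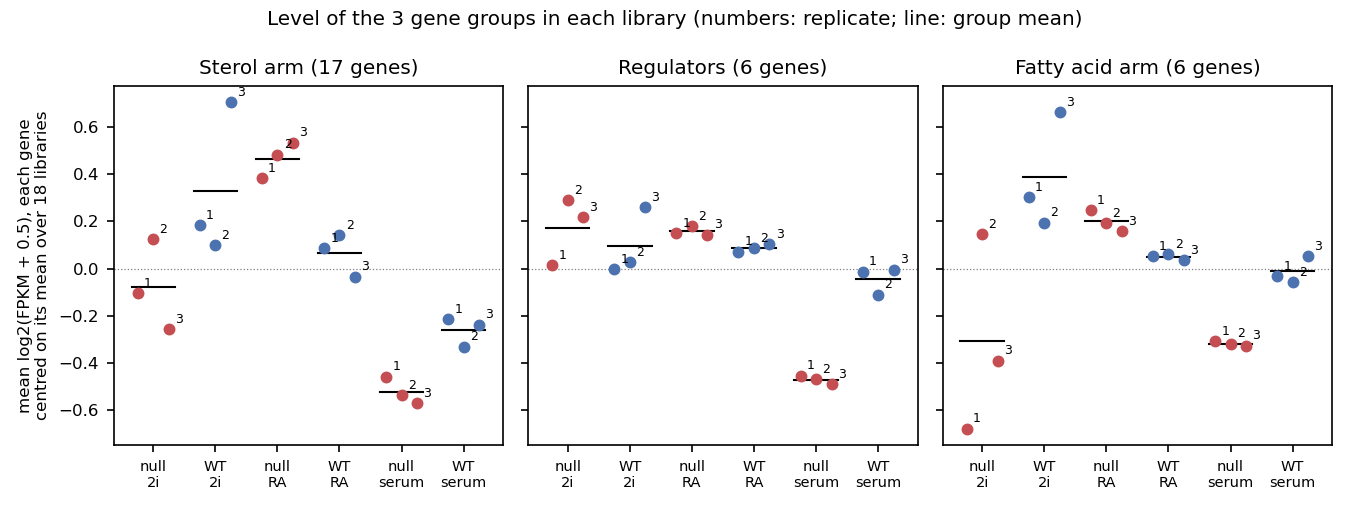
Level of each arm in each library, as the mean over its genes of log2(FPKM + 0.5) after the gene's mean over 18 libraries was taken off; numbers mark replicates, bars the mean of 3 libraries, and Daxx-null stands left of wild type in each culture. Wild-type replicate 3 in 2i lies at 0.70 in the sterol arm, its sisters at 0.19 and 0.10, and the Daxx-null serum libraries lie lowest, at -0.46 to -0.57. In this unweighted level the genotypes overlap in 2i, Daxx-null replicate 2 lying at 0.13.

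Between genotypes, more members were called lower than higher in 2i and in serum, and those called in retinoic acid were higher. A call is an adjusted p under 0.05 by limma, adjusted by Benjamini-Hochberg over all genes. In 2i, 4 members rose and 15 fell in the Daxx-null line, beside 31.5% of all tested genes higher and 15.3% lower. The median of the 29 was -0.48, against 0.20 for all genes. Of the 17 tested sterol enzymes 2 rose and 8 fell, of 6 regulators 2 rose and 2 fell, and of 6 fatty acid enzymes 0 rose and 5 fell. In retinoic acid, 4 members were higher and 0 lower, beside 0.222% and 2.27% of all genes, and the 4 are sterol enzymes. At an unadjusted p under 0.05 limma put 11 of the 29 members higher and 0 lower, beside 636 and 1621 of all 18002 genes. The median was 0.24, against -0.05 for all genes. In serum, 3 members were higher, near the 9.29% of all genes, and 10 lower, beside 18.9%, with a median of -0.32 against -0.12. Here 3 sterol enzymes rose and 5 fell, 4 of 6 regulators fell and 1 of 6 fatty acid enzymes fell.

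The counts leaned on single libraries to different degrees. In 2i the count of lower members was 17 without Daxx-null replicate 2, 12 without wild-type replicate 3 and 15 without both, and it was 6 when only the 2i libraries were fitted, where the calls of Lss, Tm7sf2, Msmo1, Cyp51, Insig1, Srebf2, Fasn, Scd1 and Scd2 were lost. In retinoic acid 0 members were called without wild-type replicate 3 (7 were higher at an unadjusted p under 0.05), and 2 were called without Daxx-null replicate 1 or without replicate 2. When only the retinoic acid libraries were fitted 5 were called, of which Sqle alone was among the 4, and Idi1, Fdft1 and Hsd17b7 were lost (adjusted p = 0.051, 0.1 and 0.081). Quantile normalization and the authors' table put Sqle at an adjusted p of 0.051. In serum the count of lower members was 6 without Daxx-null replicate 2, without replicate 3 or without wild-type replicate 3, and 6 with median-ratio scaling. The 3 higher calls in serum became 1 without Daxx-null replicate 1 or 3 or without wild-type replicate 2 or 3, and Sqle remained in each.

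**Figure D2:**
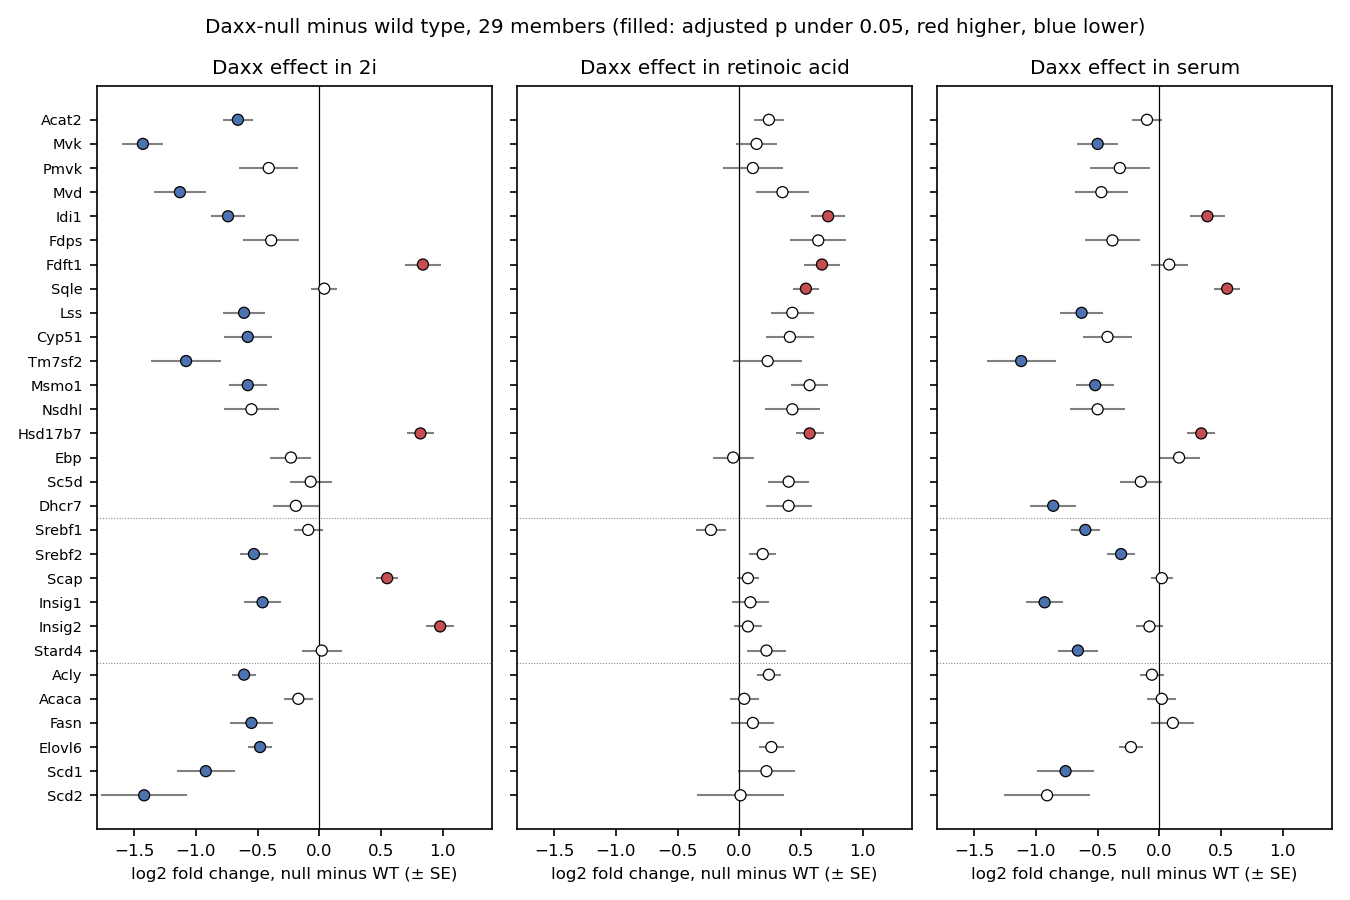
Log2 fold change, Daxx-null minus wild type, of 29 members in 2i, retinoic acid and serum; bars are 1 SE, filled points passed an adjusted p of 0.05 (red higher, blue lower), and dotted lines part the sterol enzymes, in the order of the pathway, from the regulators and the fatty acid enzymes. The SE is pooled over all 18 libraries, so it is the same for a gene in each culture and does not show its spread there. Most points lie left of 0 in 2i and serum and right of 0 in retinoic acid, where 4 are filled.

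Among the first steps of the pathway, which make and activate mevalonate, Mvk, Mvd and Acat2 fell in 2i, while Pmvk was not called and Hmgcs1 was not tested. Mvk (chr5:114894278-114910599, plus strand, mm9), the kinase that phosphorylates mevalonate, had 109, 109.6 and 89.0 FPKM in Daxx-null cells in 2i, against 257, 224 and 366 FPKM in wild-type cells. All 3 Daxx-null libraries lay below all wild-type libraries (log2 fold change -1.43 ± 0.166 SE, adjusted p = 1e-05). In retinoic acid it had 143, 155 and 173 FPKM in Daxx-null against 132, 140.2 and 155 FPKM in wild-type cells, ranges that overlapped (0.14 (adjusted p = 0.85)). In serum it had 98.4, 93.1 and 87.6 against 114, 119 and 167 FPKM, again without overlap, at -0.50 ± 0.166 (SE), adjusted p = 0.035. That serum call was lost under quantile normalization and median-ratio scaling (adjusted p = 0.082 and 0.13), and without wild-type replicate 3 it stood at -0.32 (adjusted p = 0.18). Mvd (chr8:124957496-124967322, minus strand), which decarboxylates mevalonate diphosphate, had 148, 133 and 145 FPKM in Daxx-null cells in 2i, against 259, 232 and 499.99 FPKM in wild-type cells (log2 fold change -1.13 ± 0.213 SE, adjusted p = 0.00053). The genotypes did not overlap, and 499.99 FPKM in wild-type replicate 3 stood far above its sisters. Without that library and Daxx-null replicate 2 the log2 fold change was -0.74 (adjusted p = 0.0017). In retinoic acid and serum Mvd was not called, at 0.35 (adjusted p = 0.57) and -0.47 (adjusted p = 0.11).

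Acat2, the cytosolic thiolase that joins acetyl-CoA units at the entry to the pathway, averaged 223 ± 42.6 FPKM in Daxx-null and 351 ± 47.9 FPKM in wild-type cells in 2i (SD, n = 3 each) and fell by 0.66 on the log2 scale (adjusted p = 0.00046). It was not called in retinoic acid (0.24) or serum (-0.10). Acat3, a near-identical gene whose reads cannot be told apart with certainty, stood at -0.21 in 2i (adjusted p = 0.15). Pmvk, the second kinase, and Fdps, which makes farnesyl diphosphate, passed the threshold in none of the 3 cultures. Their log2 fold changes were -0.41 and -0.39 in 2i, 0.11 and 0.64 in retinoic acid and -0.32 and -0.38 in serum. Hmgcs1, which makes the precursor of mevalonate, was listed at 0 in every library. Its entry lies on an unplaced piece of chromosome 13, so nothing is read from it.

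Idi1 (chr13:8884852-8891642, plus strand), the isomerase that starts isoprenoid chains, moved in opposite directions. It had 68.6, 102 and 70.1 FPKM in Daxx-null cells in 2i, against 134, 118 and 147 FPKM in wild-type cells, and every Daxx-null library was lower (log2 fold change -0.74 ± 0.14 SE, adjusted p = 0.00056). Under retinoic acid it had 172, 154 and 146 FPKM in Daxx-null against 104, 99.6 and 82.5 FPKM in wild-type cells, and every Daxx-null library was higher (log2 fold change 0.72 ± 0.14 SE, adjusted p = 0.009). In serum it had 114, 101 and 102 against 85.0, 80.9 and 74.8 FPKM, also higher in each Daxx-null library, at 0.39 ± 0.14 (SE), adjusted p = 0.047, a call lost without any 1 of the 6 serum libraries (adjusted p 0.068 to 0.16). The difference between its Daxx effects in 2i and serum was -1.13 ± 0.198 (SE), adjusted p = 0.00039.

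Fdft1 and Sqle commit the pathway to sterols. Fdft1 (chr14:63763988-63798415, minus strand), squalene synthase, had 147, 150.1 and 107 FPKM in Daxx-null cells in 2i, against 74.9, 69.3 and 79.6 FPKM in wild-type cells (log2 fold change 0.84 ± 0.149 SE, adjusted p = 0.00035), with every Daxx-null library higher. Ctsb, on the other strand, overlaps it, and the sources used here give no strand. Ctsb rose by 1.78 in 2i and stood at -0.02 in retinoic acid. In retinoic acid Fdft1 had 97.6, 89.1 and 103 against 63.6, 71.6 and 48.1 FPKM, again without overlap (0.67 (adjusted p = 0.023), lost without any 1 retinoic acid library except wild-type replicate 2), and in serum 71.3, 67.6 and 61.5 against 70.2, 62.4 and 56.6 FPKM, with overlap (0.08 (adjusted p = 0.73)). Sqle (chr15:59146647-59162748, plus strand), squalene epoxidase and a rate-controlling step, had 505, 617 and 532 FPKM in Daxx-null against 533, 562 and 506 FPKM in wild-type cells in 2i (0.04 (adjusted p = 0.75)). It had 607, 606 and 609.6 FPKM in Daxx-null cells in retinoic acid, against 424, 455 and 379 FPKM in wild-type cells (log2 fold change 0.54 ± 0.104 SE, adjusted p = 0.0086). In serum it had 537, 426 and 438 against 342, 327 and 284 FPKM (log2 fold change 0.55 ± 0.104 SE, adjusted p = 0.0011). Daxx-null libraries lay above wild type in both of these cultures, and the ranges overlapped in 2i.

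Lss (chr10:75994350-76019884, plus strand), which closes squalene epoxide into lanosterol, had 80.1, 84.6 and 82.7 FPKM in Daxx-null cells in serum, against 129.8, 119 and 135 FPKM in wild-type cells, all Daxx-null libraries being lower (log2 fold change -0.63 ± 0.173 SE, adjusted p = 0.013). In 2i it had 57.4, 91.0 and 60.1 against 93.6, 84.3 and 143 FPKM, ranges that overlapped through Daxx-null replicate 2 (-0.61 (adjusted p = 0.0088)). The 2i call was lost without wild-type replicate 3 (log2 fold change -0.38, adjusted p = 0.051). In retinoic acid it had 152, 157 and 153 against 114, 121 and 108 FPKM, higher in each Daxx-null library but not called (0.43 (adjusted p = 0.29)).

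The enzymes that turn lanosterol into cholesterol include Tm7sf2, Msmo1, Dhcr7 and Cyp51. Tm7sf2 (chr19:6062821-6067850, minus strand), a sterol reductase, had 43.3, 55.0 and 40.6 FPKM in Daxx-null cells in 2i, against 71.3, 71.6 and 181 FPKM in wild-type cells (log2 fold change -1.08 ± 0.281 SE, adjusted p = 0.0054). It had 24.7, 29.4 and 30.04 FPKM in Daxx-null against 54.2, 48.9 and 86.5 FPKM in wild-type cells in serum (log2 fold change -1.12 ± 0.281 SE, adjusted p = 0.0078). Daxx-null libraries were lower without overlap in both cultures, whereas in retinoic acid the ranges overlapped at 119, 138 and 147 against 112, 121 and 111 FPKM (0.23 (adjusted p = 0.86)). Without wild-type replicate 3 in 2i, Tm7sf2 stood at -0.63 (adjusted p = 0.019) and Msmo1 at -0.37 (adjusted p = 0.032). Vps51, which overlaps Tm7sf2 on the same strand, stood at 0.02 in 2i and -0.04 in serum. Msmo1 (chr8:67196942-67212375, minus strand), the methylsterol oxidase, had 568, 670.3 and 512 FPKM in Daxx-null cells in 2i, against 744, 754 and 1155 FPKM in wild-type cells (log2 fold change -0.58 ± 0.153 SE, adjusted p = 0.0059). It had 338, 252 and 265 against 416, 361 and 440.2 FPKM in serum, lower again (-0.52 (adjusted p = 0.019)). That serum call was lost with median-ratio scaling (adjusted p = 0.095), with chromosome medians removed (-0.28, adjusted p = 0.23) and without Daxx-null replicate 2 or 3 or wild-type replicate 1 or 3 (adjusted p 0.06 to 0.082). In retinoic acid the order turned, with 768, 744 and 782 against 513, 538 and 492 FPKM and every Daxx-null library higher, though the call was missed (0.57 (adjusted p = 0.065)).

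Dhcr7 (chr7:151009072-151034315, plus strand), which catalyses the last reduction to cholesterol, changed in serum. It had 134, 139 and 141 FPKM in Daxx-null cells in serum, against 270.3, 241 and 239.6 FPKM in wild-type cells, all lower in Daxx-null (log2 fold change -0.86 ± 0.187 SE, adjusted p = 0.0031). In 2i the values interleaved at 176, 253 and 162 against 193, 169 and 326 FPKM (-0.19 (adjusted p = 0.42)). With retinoic acid it had 262, 274 and 273 against 205, 208 and 197 FPKM, higher in each Daxx-null library and not called (0.40 (adjusted p = 0.38)). Cyp51, the lanosterol demethylase, averaged 167 ± 64.7 FPKM in Daxx-null and 241 ± 54.8 FPKM in wild-type cells in 2i (SD, n = 3 each). It was called lower in 2i (-0.58 (adjusted p = 0.024)), a call lost without wild-type replicate 3 (adjusted p = 0.13) and at -0.88 without Daxx-null replicate 2. It was not called in retinoic acid (0.41) or serum (-0.42). Nsdhl, Ebp and Sc5d, which remove methyl groups, shift and add double bonds, passed the threshold in no culture. Their log2 fold changes in 2i were -0.55, -0.23 and -0.07, and in serum -0.50, 0.16 and -0.15.

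Hsd17b7 (chr1:171879668-171899336, minus strand), the ketoreductase of the demethylation complex, was the one sterol enzyme called higher in all 3 cultures. It had 119, 143 and 129 FPKM in Daxx-null cells in 2i, against 73.7, 67.9 and 78.3 FPKM in wild-type cells (log2 fold change 0.82 ± 0.113 SE, adjusted p = 4e-05). In retinoic acid it had 146, 146 and 138 against 97.4, 111 and 82.1 FPKM (0.57 (adjusted p = 0.0098)), and in serum 52.5, 46.0 and 47.5 against 41.4, 39.2 and 34.6 FPKM (0.34 (adjusted p = 0.034)). No Daxx-null library overlapped wild type in any culture. The retinoic acid call was lost without Daxx-null replicate 2 or wild-type replicate 3 (adjusted p = 0.053 and 0.064), and the serum call without Daxx-null replicate 1 or 3 or wild-type replicate 2 or 3 (adjusted p 0.063 to 0.14). Genes on its chromosome moved with it: in 2i the median log2 fold change of 1035 tested genes on chromosome 1 was 0.70. Chromosome 14, which carries Fdft1, stood at 0.69, chromosome 9 at 0.21 and X, with Nsdhl and Ebp, at 0.44. With each chromosome's median taken off, Hsd17b7 stood at 0.11 in 2i (adjusted p = 0.47), Fdft1 at 0.22 (adjusted p = 0.25) and Insig2 at 0.27 (adjusted p = 0.058), and the 2i counts became 1 higher and 19 lower. The chromosome 1 median was 0.11 in retinoic acid and 0.12 in serum. With chromosome medians taken off, the Hsd17b7 call was lost in serum too (0.22, adjusted p = 0.19) and kept in retinoic acid (0.51, adjusted p = 0.031).

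**Figure D3:**
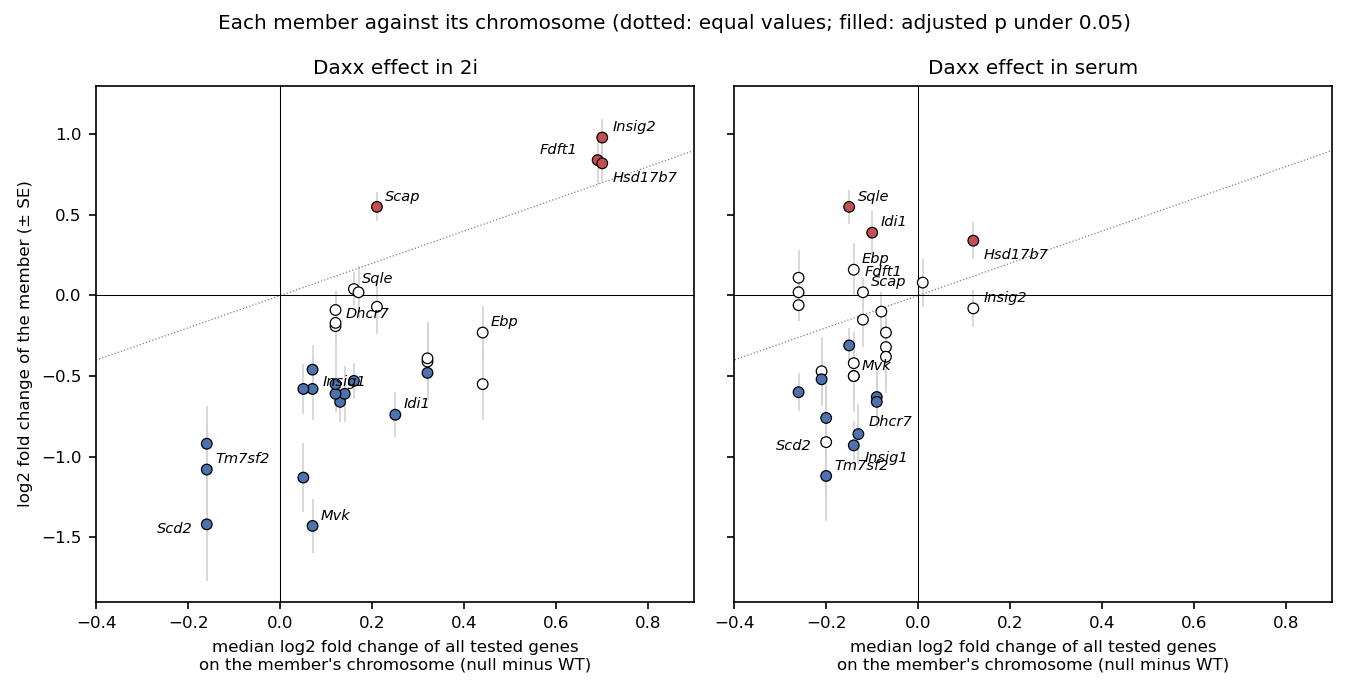
Log2 fold change, Daxx-null minus wild type, of each of 29 members (vertical, ± SE) against the median log2 fold change of all tested genes on its chromosome (horizontal), in 2i and in serum; the dotted line marks equal values and filled points passed an adjusted p of 0.05. In 2i, Insig2, Fdft1 and Hsd17b7 lie near the line at chromosome medians of 0.70 and 0.69, while Mvk and Scd2 lie far under it.

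The regulators split. Insig1 (chr5:28397952-28405202, plus strand), the sterol-sensing retention factor and SREBP target, had 258, 182 and 183 FPKM in Daxx-null cells in serum, against 412, 351 and 416 FPKM in wild-type cells (log2 fold change -0.93 ± 0.15 SE, adjusted p = 0.00034). In 2i it had 344, 405 and 367 against 452, 449 and 657 FPKM (-0.46 (adjusted p = 0.02)). Daxx-null libraries were lower without overlap in both cultures, but the 2i call was lost without wild-type replicate 3 (-0.28, adjusted p = 0.12). In retinoic acid Insig1 had 333, 370.4 and 333 against 303, 316 and 353 FPKM, with overlap (0.09 (adjusted p = 0.91)). Insig2 (chr1:123200930-123229166, minus strand), its paralogue, had 121, 108 and 119 FPKM in Daxx-null cells in 2i, against 56.8, 61.7 and 56.6 FPKM in wild-type cells (log2 fold change 0.98 ± 0.113 SE, adjusted p = 9.5e-06). Every Daxx-null library was higher in 2i, while the ranges overlapped in retinoic acid (98.0, 94.2 and 96.0 against 93.5, 98.0 and 84.3 FPKM) and serum (71.3, 102 and 95.8 against 94.2, 99.4 and 87.7 FPKM). Scap, the escort, averaged 226 ± 20.4 FPKM in Daxx-null and 155 ± 16.4 FPKM in wild-type cells in 2i (SD, n = 3 each) and rose by 0.55 (adjusted p = 0.00018), and by 0.33 (adjusted p = 0.0038) with the median of chromosome 9 taken off.

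Srebf2 (chr15:81977699-82035390, plus strand), which encodes the SREBP that mainly drives sterol genes, had 452, 611 and 568 FPKM in Daxx-null cells in 2i, against 713, 702 and 945 FPKM in wild-type cells, lower without overlap (log2 fold change -0.53 ± 0.111 SE, adjusted p = 0.0012). It had 567, 583 and 557 against 511, 505 and 478 FPKM in retinoic acid (0.19 (adjusted p = 0.54)). In serum it had 482, 468 and 463 against 582, 571 and 604 FPKM (-0.31 (adjusted p = 0.045)). Daxx-null libraries were above wild type in retinoic acid and below it in serum, but the serum call was lost without any 1 library (adjusted p 0.077 to 0.12). Srebf1 (chr11:60012586-60034129, minus strand), whose products drive fatty acid genes, had 157, 137 and 145 FPKM in Daxx-null cells in serum, against 215, 208 and 241 FPKM in wild-type cells, all lower in Daxx-null (log2 fold change -0.60 ± 0.119 SE, adjusted p = 0.0017). With the median of chromosome 11 taken off (-0.26 in serum) it stood at -0.33 and was not called (adjusted p = 0.074). Its values overlapped in 2i, at 157, 241 and 188 against 192, 201 and 223 FPKM (-0.09 (adjusted p = 0.56)). Under retinoic acid it had 229, 231 and 254 against 273, 278 and 283 FPKM, each Daxx-null library being lower, with no call (-0.23 (adjusted p = 0.48)). Rai1 overlaps Srebf1 on the other strand and stood at 1.32 in 2i and 0.80 in serum. Stard4 (chr18:33358792-33373516, minus strand), a carrier of free cholesterol, had 88.9, 88.7 and 81.8 FPKM in Daxx-null cells in serum, against 149.7, 125 and 137 FPKM in wild-type cells, without overlap (log2 fold change -0.66 ± 0.16 SE, adjusted p = 0.0063). Its ranges overlapped in 2i, at 118, 182 and 154 against 129, 123 and 199 FPKM, while in retinoic acid it had 173, 184 and 168 against 147, 149.7 and 155 FPKM (0.22 (adjusted p = 0.68)).

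In the fatty acid arm 5 enzymes fell in 2i, and Scd1 also fell in serum. Scd2 (chr19:44368166-44381352, plus strand), the main stearoyl-CoA desaturase of the brain, had 559, 2366 and 774 FPKM in Daxx-null cells in 2i, against 2382, 2169 and 3836 FPKM in wild-type cells (log2 fold change -1.42 ± 0.351 SE, adjusted p = 0.0037). The ranges overlapped through Daxx-null replicate 2, which stood above its sisters here and apart from them in several marker sums. Without it the log2 fold change was -2.04 (adjusted p = 1.6e-06), without wild-type replicate 3 it was -1.17 (adjusted p = 0.024), and when only 2i libraries were fitted the call was lost (adjusted p = 0.1). In serum Scd2 had 1034, 981 and 963 against 1819, 1754 and 2037 FPKM, lower in each Daxx-null library but not called (-0.91 (adjusted p = 0.064)). In retinoic acid it had 4087, 4369 and 4491 against 4349.96, 4380.1 and 4122 FPKM, the highest level of any member, with overlap (0.01 (adjusted p = 1)).

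Scd1 (chr19:44468940-44482199, minus strand), the neighbouring desaturase gene, had 180.1, 389.9 and 236 FPKM in Daxx-null cells in 2i, against 423, 364 and 725 FPKM in wild-type cells (log2 fold change -0.92 ± 0.234 SE, adjusted p = 0.0047), overlapping through the same library. In serum it had 169.7, 153 and 150.2 against 272, 245 and 287 FPKM, lower without overlap (-0.76 (adjusted p = 0.023)), a call lost under quantile normalization (adjusted p = 0.056), median-ratio scaling (0.058), removal of chromosome medians (0.12) and without Daxx-null replicate 2 or 3 or wild-type replicate 1 or 3 (0.061 to 0.076). With retinoic acid it had 305, 321 and 314 against 263, 275 and 269 FPKM (0.22 (adjusted p = 0.82)). Fasn (chr11:120667272-120685861, minus strand), fatty acid synthase, had 248, 491 and 379 FPKM in Daxx-null cells in 2i, against 552, 485 and 539 FPKM in wild-type cells, with overlap (log2 fold change -0.55 ± 0.174 SE, adjusted p = 0.017). The Fasn call was lost without Daxx-null replicate 1 (-0.28, adjusted p = 0.075), without wild-type replicate 1 (adjusted p = 0.051) and with quantile normalization (adjusted p = 0.12). Its retinoic acid values were 587, 493 and 456 against 447, 463 and 501 FPKM and its serum values 485, 565 and 595 against 478, 509.7 and 528 FPKM, with overlap in both. Acly, which makes cytosolic acetyl-CoA, averaged 617 ± 96.9 FPKM in Daxx-null and 936 ± 88.7 FPKM in wild-type cells in 2i (SD, n = 3 each) and fell by 0.61 (adjusted p = 0.00015). Elovl6, an elongase, averaged 388 ± 26.7 FPKM in Daxx-null and 546 ± 76.7 FPKM in wild-type cells in 2i and fell by 0.48 (adjusted p = 0.001). Acaca, acetyl-CoA carboxylase, was the one fatty acid enzyme not called in 2i (-0.17 (adjusted p = 0.24)).

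**Figure D4:**
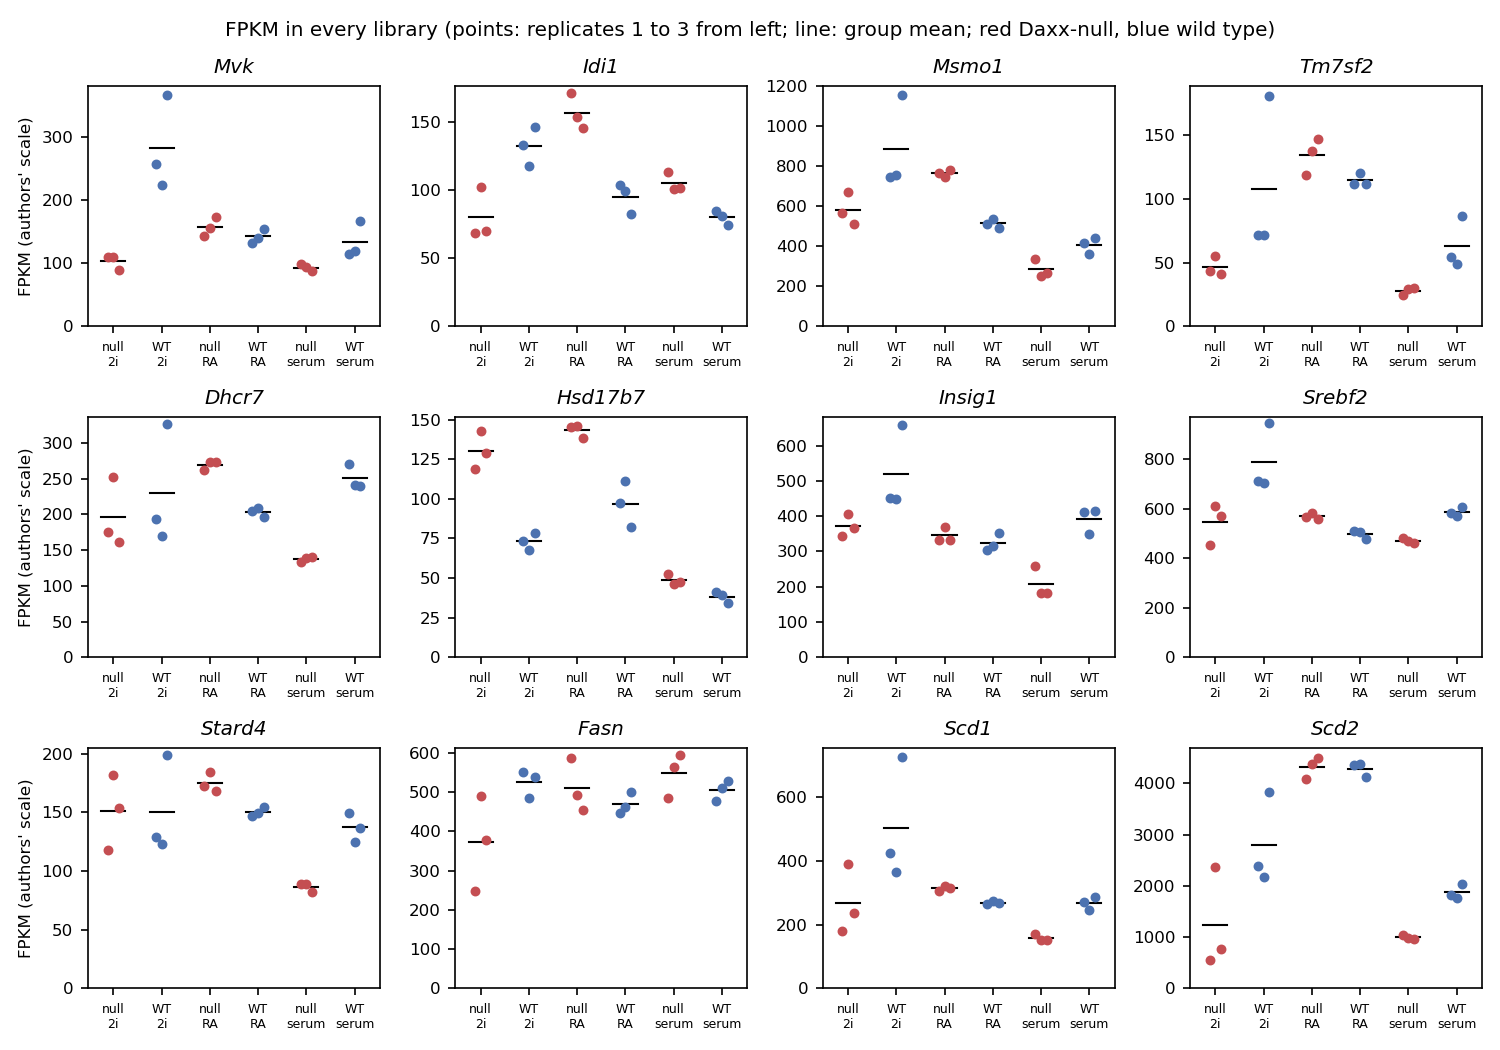
FPKM of 12 members in each library, 3 libraries per group, Daxx-null left of wild type in each culture; points are libraries and bars are group means. Mvk in wild-type 2i (224 to 366 FPKM) and Scd2 in both retinoic acid groups (4087 to 4491 FPKM) stand above the other groups of their gene.

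The Daxx effect differed between cultures for some members. Set against serum, the effect in 2i was higher for 6 members and lower for 6, beside 31.5% and 11.5% of all genes. The higher ones were Insig2 (1.06 (adjusted p = 0.00011)), Fdft1 (0.75 (adjusted p = 0.0098)), Stard4 (0.68 (adjusted p = 0.024)), Scap (0.53 (adjusted p = 0.0039)), Srebf1 (0.51 (adjusted p = 0.023)) and Hsd17b7 (0.48 (adjusted p = 0.023)). The lower ones were Idi1 (-1.13), Mvk (-0.93), Fasn (-0.66), Acat2 (-0.56), Acly (-0.55) and Sqle (-0.51), with adjusted p between 0.00039 and 0.04. All genes had a median of 0.34 in this contrast, and median-ratio scaling gave 1 higher and 11 lower, as did removal of the chromosome medians. Fasn was lost without Daxx-null 2i replicate 1 (-0.39, adjusted p = 0.066) among other settings, and Insig2, Idi1 and Mvk were called in every alternative.

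Set against serum, the effect in retinoic acid was higher for 7 members and lower for 0, beside 4.82% and 3.38% of all genes. At an unadjusted p under 0.05 limma put 18 members higher and 0 lower, beside 2441 and 1626 of all 18002 genes. The 7 were Tm7sf2 (1.34 (adjusted p = 0.049)), Msmo1 (1.09 (adjusted p = 0.0061)), Lss (1.06 (adjusted p = 0.014)), Dhcr7 (1.26 (adjusted p = 0.0082)), Insig1 (1.03 (adjusted p = 0.0077)), Stard4 (0.88 (adjusted p = 0.026)) and Elovl6 (0.49 (adjusted p = 0.042)). The median over 29 members was 0.55, against 0.05 for all genes. Msmo1, Lss, Dhcr7 and Insig1 were called in every alternative, whereas Tm7sf2, Stard4 and Elovl6 were lost under quantile normalization and other settings. The count was 4 without Daxx-null retinoic acid replicate 2, Daxx-null serum replicate 3, wild-type retinoic acid replicate 1 or 2, or wild-type serum replicate 1 or 3. Both differences use the same serum libraries.

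Levels also differed between cultures within each genotype, in comparisons that share their serum libraries. The Daxx-null groups in 2i and serum also differed in Y-linked RNA, so culture and any difference in the origin of these cells cannot be told apart. In Daxx-null cells, 15 members were higher in 2i than in serum and 5 lower, counts near the 41.8% and 21.8% of all genes. Their median was 0.39, against 0.28 for all genes. In wild-type cells 14 were higher and 1 lower, beside 24.7% and 24.8%, with a median of 0.41 against -0.02. Ebp, the sterol isomerase, had 324, 178 and 217 FPKM in 2i against 85.9, 65.8 and 63.0 FPKM in serum in Daxx-null cells (1.70 (adjusted p = 2.6e-07)). It had 268, 261 and 285 against 65.3, 59.1 and 65.6 FPKM in wild-type cells (2.09 (adjusted p = 8.3e-08)). Every 2i library was above every serum library in both genotypes. Elovl6, Hsd17b7, Msmo1, Scap, Sc5d and Cyp51 were also higher in 2i in both genotypes, with log2 fold changes of 0.84, 1.41, 1.04, 1.24, 0.82 and 0.78 in Daxx-null cells. Acly, Acaca, Fasn, Acat2 and Idi1 were lower in 2i in Daxx-null cells (-0.45, -0.43, -0.61, -0.35 and -0.41). In wild-type cells Idi1 was higher (0.72) and the one lower member was Insig2 (-0.68). The wild-type Insig1 call (0.38 (adjusted p = 0.044)) was lost with the replicate number as a block (adjusted p = 0.053). Without wild-type 2i replicate 3 the lower count in wild type was 4, and without Daxx-null 2i replicate 3 that in Daxx-null cells was 3. In Daxx-null cells Fasn stood at -0.34 without 2i replicate 1, Cyp51 at 0.48 without 2i replicate 2, and Acat2 at -0.19 (adjusted p = 0.13) without 2i replicate 3.

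Retinoic acid against serum gave its widest change in Daxx-null cells. There, 22 members were higher and 0 lower, beside 33.0% and 33.1% of all genes, and 0 were lower at an unadjusted p under 0.05 (6212 of all 18002 genes were). The count was 15 of 17 sterol enzymes, 5 of 6 regulators and 2 of 6 fatty acid enzymes, with a median of 0.75 against -0.02 for all genes. In wild-type cells, 10 were higher, near the 30.4% of all genes, and 2 lower, beside 34.1%, with a median of 0.11 against -0.05. Scd2 had 4087, 4369 and 4491 FPKM in retinoic acid against 1034, 981 and 963 FPKM in serum in Daxx-null cells (2.12 ± 0.351 (SE), adjusted p = 6e-05). Tm7sf2 had 119, 138 and 147 against 24.7, 29.4 and 30.04 FPKM in Daxx-null cells (2.24 ± 0.281 (SE), adjusted p = 3.3e-06). All retinoic acid libraries of both genes lay above all serum libraries. In wild-type cells the rises were 1.20 for Scd2, 0.90 for Tm7sf2 and 1.32 for Hsd17b7, and Elovl6 and Acly fell (-0.45 and -0.32). Dhcr7, Lss, Msmo1, Mvk, Mvd, Idi1, Fdps, Fdft1, Srebf2, Insig1, Stard4 and Scd1 rose in Daxx-null cells and were not called in wild-type cells. The test of the difference is the one given above, which called Dhcr7, Lss, Msmo1, Insig1 and Stard4. Without wild-type serum replicate 3 the lower count in wild type was 1.

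**Figure D5:**
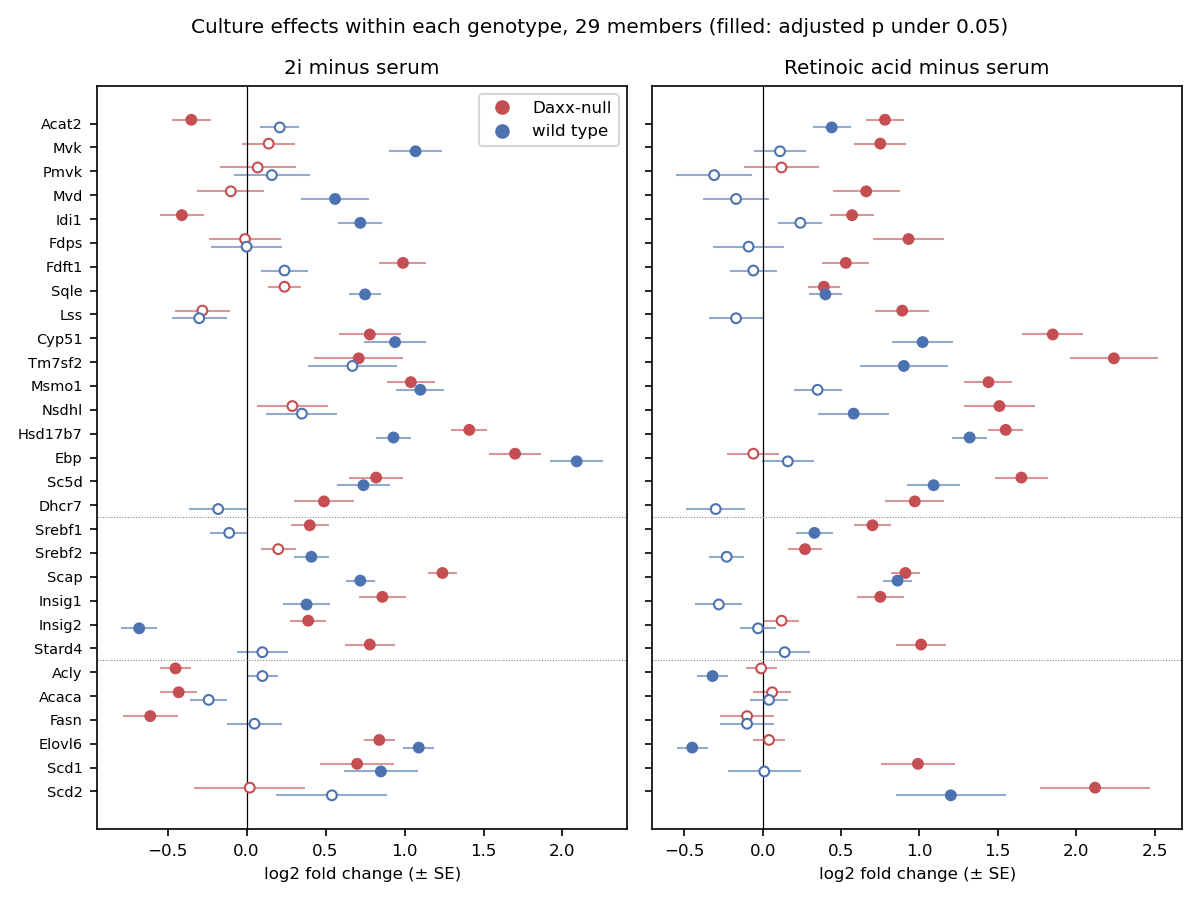
Log2 fold change of 29 members in 2i minus serum and in retinoic acid minus serum, within Daxx-null cells (red, upper point of each pair) and wild-type cells (blue); bars are 1 SE and filled points passed an adjusted p of 0.05. In retinoic acid 22 red points are filled right of 0, against 10 blue ones, and Ebp stands out in 2i at 1.70 and 2.09.

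Other genes of the same metabolism were followed as lists. Of 18 further sterol synthesis and uptake genes, 6 rose and 2 fell in Daxx-null cells in 2i, near the 31.5% and 15.3% of all genes. The higher ones were led by Lpin1 (0.94), Tmem41b (0.82), Npc1 (0.54), which exports cholesterol from lysosomes, and Scarb1 (0.37). In serum 0 rose and 8 fell, beside 9.29% and 18.9% of all genes. At an unadjusted p under 0.05 by limma 0 rose as well, beside 2367 of all 18002 genes. Acss2, which makes acetyl-CoA from acetate (-1.95 (adjusted p = 1.6e-06)), Lpin1 (-1.30), Scarb1 (-0.96) and Npc2 (-0.64) fell most. The list's medians were 0.08 in 2i and -0.28 in serum.

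Of 15 sterol efflux and liver X receptor genes, 5 rose and 1 fell in 2i and 1 rose and 3 fell in serum, counts near the shares of all genes (31.5% and 15.3% in 2i, 9.29% and 18.9% in serum). In retinoic acid limma called 0 (0 higher and 2 lower at an unadjusted p under 0.05, beside 636 and 1621 of all 18002 genes). In 2i Cyp27a1 (2.60) and Ch25h (1.96), which make oxysterols, Soat1 (2.40), which esterifies cholesterol, and Mylip (1.99), a ubiquitin ligase, rose. In serum Abca1, the cholesterol exporter, rose (1.22), and Abcg1 (-0.95), Cyp27a1 (-0.87) and Osbp (-0.52) fell. Of 23 further fatty acid synthesis genes, 7 rose and 6 fell in 2i and 2 rose and 11 fell in serum, beside the same shares of all genes; the count of higher genes in 2i and in serum was near its share. Their medians were -0.07 in 2i and -0.35 in serum, against 0.20 and -0.12 for all genes. In retinoic acid limma called 0 (1 higher and 6 lower at an unadjusted p under 0.05, beside 636 and 1621 of all 18002 genes). Thrsp (-2.39) and the desaturase Fads2 (-1.27) fell and Elovl7 (1.64) and Fads3 (1.26) rose in 2i, while Fads3 (-1.18), Fads1 (-1.07) and Pnpla3 (-0.97) fell and Mid1ip1 (1.08) rose in serum.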

How the data were processed

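RNA was measured in 18 libraries, 3 in each of 6 groups. Per the labels' protocols, polyadenylated RNA was enriched with oligo(dT) and depleted of ribosomal RNA. The sources used here give no strand. Bowtie2 2.2.6, HOMER 4.8, limma (version not given) and mm9 are named, per the submitters' processing notes. The authors deposited FPKM for 24505 RefSeq entries per library. They also deposited a table of log2 values, which differed by at most 0.00235 above the median from quantile-normalized FPKM plus a pseudocount of 1, and which served as an alternative.

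Of the low values, 99.96 to 100% were whole multiples, within 0.1, of the worth of 1 unit in their library, which gave a depth of 84.2 to 141.7 M units if the scale runs to 10 M. The 18002 genes that reached an FPKM of 1 in 3 or more libraries entered a limma fit (version 3.58.1, R 4.3.3) of log2(FPKM + 0.5), since FPKM are not counts; its variance prior followed a trend. All 18 libraries entered 1 fit with 6 group means. The SE of a gene is therefore pooled over all groups and is not the spread of the groups compared. For Scd2 it was 0.351 in each genotype contrast. The SDs of Scd2 in Daxx-null and wild-type cells were 987 and 908 FPKM in 2i, and 36.8 and 149 FPKM in serum. Fold changes are on the log2(FPKM + 0.5) scale, which understates low genes. P-values were adjusted by Benjamini-Hochberg over all genes of a contrast, with a threshold of 0.05. The fit was tested on simulated data. Precision is set by 3 libraries a group.

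Every library is given for Hmgcs1, Sqle, Insig1, Srebf1, Srebf2, Fasn, Scd1, Scd2 and up to 6 further called members per genotype contrast with the largest change. Other members are given by means or counts, and from each further list up to 4 called genes with the largest change. Members and lists were chosen with earlier results of these data known. Marker lists were summed in FPKM. Promoter windows came from RefSeq (GRCm38.p6) and were matched by symbol, for 24 of 30 members. Alternatives covered the pseudocount, the filter, the scaling, the authors' table, chromosome medians, the libraries fitted, the variance trend, a replicate block and libraries left out. Replicate numbers were checked by correlating the deviations of same-numbered libraries from their group means. Every pair correlated above 0.1 only between wild-type 2i and wild-type serum (0.15, 0.17 and 0.33), where the pairing comes from the titles' numbers. Repeat tables were not used here, and the retinoic acid result of the list of further sterol genes is not reported here.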

Additional observations from a re-analysis of the deposited data

Results flagged for a closer look

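The Daxx effect (log2 fold change, Daxx-null minus wild type) differed between cultures for 19 pairs of member and contrast, by limma's test of the difference itself. For 2i minus serum, 6 of 29 members were higher and 6 lower, beside 31.5% and 11.5% of all genes. For retinoic acid minus serum, 7 were higher and 0 lower, beside 4.82% and 3.38% of all genes. The effect in 2i minus that in serum was 1.06 for Insig2, 0.75 for Fdft1, 0.68 for Stard4, 0.53 for Scap, 0.51 for Srebf1 and 0.48 for Hsd17b7. It was -1.13 for Idi1, -0.93 for Mvk, -0.66 for Fasn, -0.56 for Acat2, -0.55 for Acly and -0.51 for Sqle. Idi1 fell in 2i and rose in serum, where the call (0.39, adjusted p = 0.047 by limma) was lost when any serum library was left out. For Sqle the rise was called in serum and not in 2i, where it stood at 0.04. Y-linked RNA summed to 173 to 236 FPKM in Daxx-null libraries in 2i and 2.18 to 2.68 FPKM in Daxx-null libraries in serum, the sources do not say whether these cells share a passage or clone, and its part in the result was not tested.

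The effect in retinoic acid minus that in serum was 1.34 for Tm7sf2, 1.26 for Dhcr7, 1.09 for Msmo1, 1.06 for Lss, 1.03 for Insig1, 0.88 for Stard4 and 0.49 for Elovl6. These 7 were picked by a test on the same libraries, so their order by library only describes them and adds no support. They were lower in every Daxx-null serum library and, apart from Tm7sf2 and Insig1, whose ranges overlapped, higher in every Daxx-null retinoic acid library. By limma none of them was called in retinoic acid alone (adjusted p 0.065 to 0.91). Y-linked RNA was near 0 in both of these Daxx-null groups, at 1.20 to 2.59 FPKM in retinoic acid and 2.18 to 2.68 FPKM in serum, against 156 to 165 FPKM and 157 to 258 FPKM in wild-type cells, and its part in the result was not tested.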

How the results depend on the processing

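Of 124 called pairs of member and comparison, 71 kept their direction and their call under every alternative run. Over all alternatives, 2008 of 2288 values kept both, 278 lost the call and 2 reversed: with chromosome medians removed, the 2i minus serum difference of the Daxx effect was -0.11 for Hsd17b7 and the 2i minus serum change of Insig2 in Daxx-null cells was -0.05. The cause was not tested, beyond the chromosome medians given above.

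Counts of called members moved as follows. For the Daxx effect in serum, 6 were lower with median-ratio scaling and 5 with chromosome medians removed. In 2i, 1 was higher and 19 lower with chromosome medians removed, and 6 were lower with only the 2i libraries. For the difference between 2i and serum, 2 were higher and 3 lower with quantile normalization and with the authors' table, and 1 higher and 11 lower with median-ratio scaling and with chromosome medians removed. For the difference between retinoic acid and serum, 4 were higher with quantile normalization, median-ratio scaling and the authors' table, and 19 with only the groups compared. For 2i against serum in wild type, 4 were lower without Daxx-null 2i replicate 2 and wild-type 2i replicate 3. In Daxx-null cells 1 was lower with only those groups, and 10 were higher and 7 lower with chromosome medians removed. For retinoic acid against serum in wild type, 1 was lower with quantile normalization, median-ratio scaling, the authors' table and chromosome medians removed, and 6 with only those groups.

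With 1 library left out, the counts ranged, higher and then lower, over 4 to 4 and 12 to 17 for the Daxx effect in 2i, 0 to 4 and 0 to 0 in retinoic acid, and 1 to 2 and 6 to 9 in serum. For the differences they ranged over 4 to 8 and 5 to 7 (2i) and 4 to 6 and 0 to 0 (retinoic acid). For 2i against serum they ranged over 12 to 16 and 3 to 7 in Daxx-null and 12 to 15 and 1 to 4 in wild type, and for retinoic acid against serum over 20 to 21 and 0 to 0 in Daxx-null and 7 to 9 and 1 to 2 in wild type. Quantile normalization gave a median of all genes of -0.033 in 2i, where it was 0.199, and 0.010 in serum, where it was -0.121. With the replicate number as a block, the Daxx effect gave 4 higher and 15 lower in 2i, 4 and 0 in retinoic acid and 3 and 10 in serum, and the call of Insig1 between wild-type 2i and serum was lost. Outside that comparison the numbers gave no pairing (correlations from -0.16 to 0.19), and the block there removed the call of Elovl6 in the difference between retinoic acid and serum (adjusted p = 0.056). With 3 libraries a group, small changes could be missed. The fit pooled the spread over all 18 libraries, so some calls fell between groups whose libraries overlapped. Mvd between wild-type 2i and serum was such a call (0.56, adjusted p = 0.041 by limma).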

Other observations

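Genes of fatty acid oxidation, which burn what the fatty acid arm makes, were more often called higher than lower in 2i and lower than higher in serum, as were all tested genes. Of 19 tested, 9 rose and 1 fell in Daxx-null cells in 2i, beside 31.5% and 15.3% of all genes, with a median log2 fold change of 0.29 against 0.20 for all genes. In serum 2 rose and 10 fell, beside 9.29% and 18.9% of all genes, with a median of -0.48 against -0.12. In retinoic acid 0 rose and 1 fell, beside 0.222% and 2.27% of all genes. At an unadjusted p under 0.05 by limma 0 rose as well, beside 636 of all 18002 genes. Acadl, a long-chain acyl-CoA dehydrogenase, rose in 2i by 1.58 (adjusted p = 1.5e-06), as did Ppargc1a, a coactivator of mitochondrial genes, by 1.22 (adjusted p = 0.027) and Cpt1b, a carnitine transferase, by 1.04 (adjusted p = 0.00063). Acads fell, at -0.99 (adjusted p = 7.5e-05). In serum Cpt1a, the gate of fatty acid entry into mitochondria, fell at -0.86 (adjusted p = 0.011), Cpt1b at -0.82 (adjusted p = 0.0066), Acadvl at -0.78 (adjusted p = 0.00092) and Slc25a20, the carnitine carrier, at -0.65 (adjusted p = 0.031). Cpt1a was the gene called in retinoic acid, at -1.08 (adjusted p = 0.016). The difference between the Daxx effects in 2i and serum was called higher for 8 of the 19 and lower for 0, beside 31.5% and 11.5% of all genes. At an unadjusted p under 0.05 by limma the counts were 12 and 0, beside 6674 and 2601 of all 18002 genes.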
